A study of Mus musculus with 28 samples.

Results

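The peaks described here are the weaker meiotic break sites inside genes of mice that carry the Prdm9 (K/K) genotype, a form of Prdm9 that lacks the KRAB domain per the labels. They were chosen by rule from the authors' list of 17731 peaks of single-stranded DNA in testis, and 2971 peaks met it, or 16.8% of the list. A chosen peak held fewer than 57 distinct single-stranded DNA fragments, lay over 1000 bp from the first and last base of every annotated gene, and had its middle inside a protein-coding gene. Fragment counts therefore chose these peaks, and every fragment count or density given for them is a description. Outside the rule were 3453 similarly weak peaks between genes, 560 stronger peaks away from gene ends and 10747 peaks at gene ends. Of the 560 stronger peaks, 377 were inside genes. In the terms inside genes and between genes, only protein-coding genes count. A weaker peak that lay inside a noncoding gene only is thus counted as between genes.

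The series compared domains of PRDM9 in mouse testis and in a germ cell line. The break map came from 1 library of whole testis from C57BL/6 mice, made by chromatin immunoprecipitation on fixed tissue. The age of the mice and the number of testes pooled are not given in the labels, and no break map of wild-type mice is part of what was analysed here. With 1 library there is no replicate check, so values below are set side by side with no test, and intervals cover counting error only. The mRNA libraries used for the host genes were from whole testis of C57BL/6 mice of other genotypes: 2 of Prdm9 KO, 2 of Hop2 KO and 1 of adult wild type, with no age stated for the knockouts.

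In mouse meiosis, PRDM9 binds DNA through its zinc fingers and trimethylates lysine 4 of histone H3 nearby, and SPO11 then cuts the DNA at those places. The cut ends are trimmed back to single strands, on which the recombinase DMC1 assembles, and sequencing of DMC1-bound single strands (SSDS) marks the break on both sides: fragments of the forward strand lie to the left of the break and those of the reverse strand to its right. In mice without PRDM9, breaks are known to form at other places that carry the same histone mark, among them promoters. Many genes have more than 1 promoter, so a transcript can start deep inside the annotated body of a gene. CpG islands, stretches in which the dinucleotide CG is not depleted, mark many such starts and carry the histone mark without PRDM9.

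Many of the peaks lay at a transcript start inside a gene, so the sequence windows of 6 such starts are shown first. Each runs 5′ to 3′ along the transcript from 250 bases before its start to 50 after, is taken from RefSeq on GRCm38.p6, and has every CG in capitals. Pom121, which encodes a nuclear pore protein, and Ptp4a2, which encodes a protein phosphatase, had the highest CpG content of the starts that lay in one of the peaks. Cdyl, which encodes a chromodomain protein, and Dnmt3a, which encodes a DNA methyltransferase, are the listed chromatin and spermatogonial genes with the most fragments at such a start. Myo1c, which encodes a motor protein, is shown at a start in one of the peaks and at a start in no peak.
Pom121, chr5:135394497-135394796, minus strand: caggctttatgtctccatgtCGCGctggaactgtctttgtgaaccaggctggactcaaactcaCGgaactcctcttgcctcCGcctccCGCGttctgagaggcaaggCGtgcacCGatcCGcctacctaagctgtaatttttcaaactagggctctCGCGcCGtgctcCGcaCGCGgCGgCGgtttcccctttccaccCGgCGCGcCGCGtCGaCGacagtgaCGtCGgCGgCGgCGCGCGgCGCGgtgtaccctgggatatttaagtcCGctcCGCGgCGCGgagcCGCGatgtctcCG
Ptp4a2, chr4:129820229-129820528, plus strand: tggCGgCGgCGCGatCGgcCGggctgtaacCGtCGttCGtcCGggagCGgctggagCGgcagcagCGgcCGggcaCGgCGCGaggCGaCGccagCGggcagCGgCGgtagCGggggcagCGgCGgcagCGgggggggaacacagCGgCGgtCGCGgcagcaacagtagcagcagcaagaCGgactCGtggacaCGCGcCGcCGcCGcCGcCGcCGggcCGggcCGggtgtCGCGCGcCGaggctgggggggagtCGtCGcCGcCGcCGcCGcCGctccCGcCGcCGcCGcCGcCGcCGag
Cdyl, chr13:35741152-35741451, plus strand: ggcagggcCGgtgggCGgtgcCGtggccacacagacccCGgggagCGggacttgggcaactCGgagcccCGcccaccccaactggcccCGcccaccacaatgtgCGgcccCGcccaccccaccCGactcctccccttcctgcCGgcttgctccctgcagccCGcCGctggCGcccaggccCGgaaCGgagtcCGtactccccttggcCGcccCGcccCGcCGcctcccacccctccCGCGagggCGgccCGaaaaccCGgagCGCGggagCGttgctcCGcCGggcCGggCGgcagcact
Dnmt3a, chr12:3891494-3891793, plus strand: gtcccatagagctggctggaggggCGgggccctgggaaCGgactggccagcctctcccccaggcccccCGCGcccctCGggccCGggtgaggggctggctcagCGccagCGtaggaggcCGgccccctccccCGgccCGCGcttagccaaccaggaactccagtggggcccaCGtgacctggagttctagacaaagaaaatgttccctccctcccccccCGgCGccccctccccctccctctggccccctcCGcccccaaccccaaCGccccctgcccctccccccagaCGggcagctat
Myo1c start in the peak, chr11:75655765-75656064, plus strand: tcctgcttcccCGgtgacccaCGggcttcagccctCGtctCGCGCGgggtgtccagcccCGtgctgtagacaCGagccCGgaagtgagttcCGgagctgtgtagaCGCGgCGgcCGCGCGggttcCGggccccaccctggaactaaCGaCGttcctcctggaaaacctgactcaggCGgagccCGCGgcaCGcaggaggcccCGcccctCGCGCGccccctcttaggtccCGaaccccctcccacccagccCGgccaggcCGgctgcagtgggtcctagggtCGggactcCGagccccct
Myo1c start in no peak, chr11:75651900-75652199, plus strand: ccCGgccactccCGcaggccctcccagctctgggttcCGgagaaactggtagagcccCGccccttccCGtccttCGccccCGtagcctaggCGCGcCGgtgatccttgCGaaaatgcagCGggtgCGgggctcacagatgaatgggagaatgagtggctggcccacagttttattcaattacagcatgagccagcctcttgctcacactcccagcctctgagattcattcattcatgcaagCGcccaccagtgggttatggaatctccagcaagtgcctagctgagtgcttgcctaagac

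These windows held 41 CG in Pom121, 60 CG in Ptp4a2, 34 CG in Cdyl, 18 CG in Dnmt3a, 32 CG in the Myo1c start in the peak and 14 CG in the Myo1c start in no peak. The GC-box letters GGGCGG were present in the windows of Cdyl, Dnmt3a and both Myo1c starts and absent from those of Pom121 and Ptp4a2. Of the 6 windows, only that of the Myo1c start in the peak held the ETS-type letters CCGGAAGT. The 2 Myo1c starts are in the same gene body. Within 1000 bp there were 28 distinct fragments at the start in the peak and 3 at the other. The pair was picked for lying in a peak and in no peak, so this difference in fragments was fixed in advance.

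The peaks held 3 to 56 distinct fragments each, with a median of 15 and quartiles of 10 and 25. Together they held 56149 distinct fragments, which is 8.04% of the fragments in all peaks and 2.12% of the 2652951 distinct fragments of the library. Their width had a median of 1563 bp and ran from 1067 to 5371 bp. The density of fragments in a peak was a median of 11.5 times that of its flanks 2 to 10 kb away, with quartiles of 7.80 and 17.6. The same median was 11.5 in the weaker peaks between genes, 38.3 in the stronger peaks away from gene ends and 19 at gene ends. In 2951 of the 2971 peaks the density was over 2 times that of the flanks and in 2 peaks it was below that of the flanks.

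The extremes of that ratio show what a small count can carry. A peak in Klf8, a gene for a zinc finger transcription factor, at chrX:153236895-153238806 held 24 fragments against 1 in its flanks, a ratio of 201 with a counting interval of 32.7 to 8259. A peak in Hnrnpul2, a gene for an RNA-binding protein, at chr19:8825827-8826893 held 8 fragments against 198 in its flanks, a ratio of 0.576 with an interval of 0.245 to 1.16. The flanks of the Hnrnpul2 peak were thus the denser of the pair of values.

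The strand order of breaks, which the rule did not use, was present in nearly all of these peaks. Forward-strand fragments lay to the left of reverse-strand fragments in 2911 of the 2951 peaks that held both strands, or 98.6%. The reverse order was seen in 40 peaks, and 20 more peaks held 1 strand only. The mean forward position minus the mean reverse position had a median of -579 bp, with quartiles of -729 and -422 bp. Windows of the same width moved 10 kb to either side and holding no part of a peak showed no such order: 667 of 1343 windows with both strands, or 49.7%, had forward fragments to the left, and the median difference was 5 bp. The share with forward fragments to the left was 98.7% between genes, 100% in the stronger peaks and 99.3% at gene ends. Programs that call peaks can use the distance between strands, so the list itself may have been selected on this order, and that part was not tested.

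The strand order was also present in the peaks with the fewest fragments. Among the 732 peaks with at most 9 fragments, the order held in 97.1% of those with both strands, and the median difference was -467 bp. The median difference was -538 bp in the 1156 peaks with 10 to 19 fragments, -649 bp in the 543 with 20 to 29, -722 bp in the 264 with 30 to 39 and -752 bp in the 276 with 40 to 56. The peaks with more fragments were also wider, with a median of 1102 bp in the lowest class and 2264 bp in the highest, so width and strand separation moved together. Over all of these peaks, the forward strand was densest 400 to 500 bp left of the middle, at 1.01 fragments per peak in 100 bp, which was 15 times its level beyond 2500 bp. The reverse strand was densest 400 to 500 bp right of the middle, also at 1.01 fragments per peak, 14.1 times its far level.

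**Figure D1:**
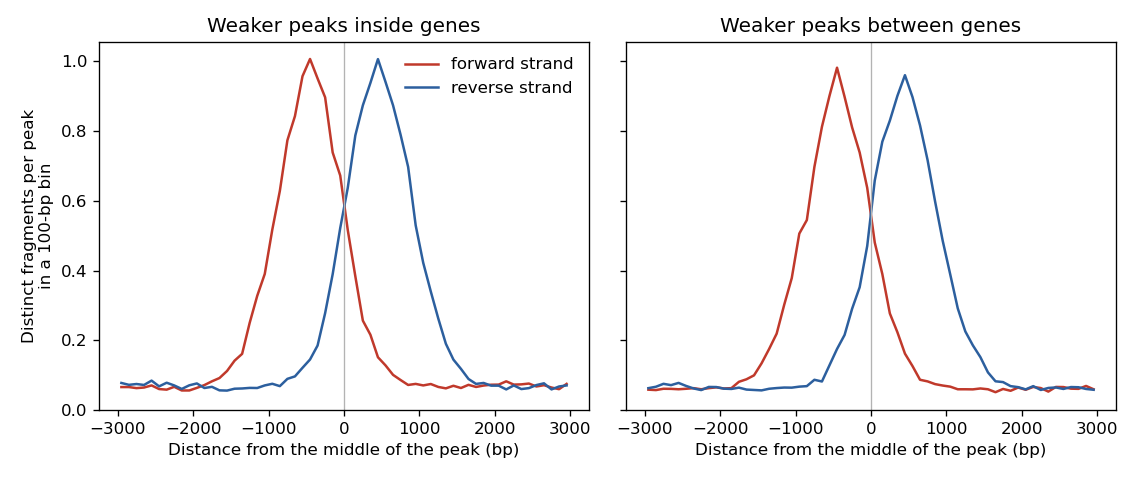
Distinct fragments per peak in bins of 100 bp (vertical axis) by distance from the middle of the peak in bp (horizontal axis), for the forward strand and the reverse strand, in the 2971 weaker peaks inside genes (left) and the 3453 weaker peaks between genes (right). Both strands reach 1.01 fragments per peak inside genes, the forward strand to the left of the middle and the reverse strand to the right.

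The limit fell within an unbroken run of counts. Among peaks inside genes, 14 held 56 fragments and 7 held 55, while 5 held 57 and 13 held 58. Those named at the upper end, all with 56 fragments, were in Kcnb2, a potassium channel gene, at chr1:15311837-15313862, in Gm973 at chr1:59539804-59541934, in Mettl25 at chr10:105817494-105819927, in Myo1c at chr11:75653241-75657049, in Cdyl at chr13:35739426-35742949 and in Cntn1, a neuronal adhesion gene, at chr15:92270147-92272301. These are only some of the 14 peaks tied at 56 fragments. The density over flanks of those named ran from 18.9 times in Cntn1 to 42.0 times in Gm973. The Cdyl peak, 3524 bp wide, had a strand difference of -1236 bp. Just outside the limit, with 57 fragments, peaks in Mcmdc2, Card6 and Wiz had densities of 24.3, 23.7 and 55.6 times their flanks.

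Gene bodies held somewhat more of the weaker peaks than their share of bases. Of the 6424 weaker peaks away from gene ends, 46.2% were inside protein-coding genes (exact binomial interval 45% to 47.5%), whereas gene bodies made up 40.0% of the bases that could hold such a peak. Per megabase (Mb) of those eligible bases there were 3.22 peaks inside genes (exact Poisson interval 3.11 to 3.34) and 2.49 between genes (2.41 to 2.58), a ratio of 1.29. Peaks and bases inside noncoding genes only were counted as between genes, so the values between genes are not those of bases outside all annotated genes. Eligible bases were counted without regard to how well reads can be placed on them. The nearest peak of any kind was a median of 26229 bp away for peaks inside genes and 26356 bp for those between genes, and 24.8% and 22.4% had another peak within 10 kb.

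The X chromosome stood apart by its low density between protein-coding genes, so that its weaker peaks were mostly inside them. There were 96 peaks inside X-linked genes, or 2.33 per Mb (interval 1.89 to 2.84), against 3.27 per Mb (3.15 to 3.39) over the 19 autosomes, of which chromosome 6 at 2.22 and chromosome 9 at 2.23 were lower than the X. Between genes the X chromosome held 61 weaker peaks, or 0.538 per Mb (0.412 to 0.691), against 2.67 per Mb (2.58 to 2.76) on autosomes, where the lowest single value was 1.48. The density inside genes was thus 4.33 times that between genes on the X and 1.22 times on the autosomes. On single autosomes this ratio ran from 0.940 on chromosome 6 to 1.86 on chromosome 3, and it was over 1 on 16 of 19. Without the 27 peaks at an internal transcript start, the X chromosome still held 1.67 peaks per Mb inside genes (1.30 to 2.12), against 2.77 on autosomes, where all peaks on chromosome 18 are counted as away from internal starts. The X-linked genes with the most of these peaks were Bcor, which encodes a corepressor and held 4 with 8 to 17 fragments, and Scml2, which encodes a Polycomb-type protein of the male germ line and held 3 with 12 to 21. Males have 1 copy of the X chromosome, and its density is not corrected for copy number.

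**Figure D2:**
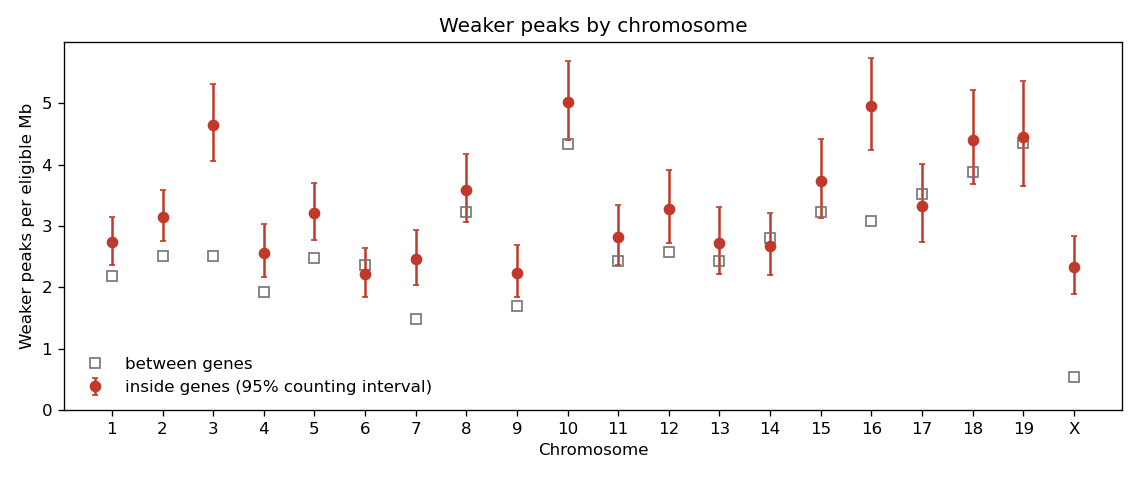
Weaker peaks per Mb of eligible bases (vertical axis) on each chromosome (horizontal axis), inside protein-coding genes (filled circles, bars are 95% exact Poisson counting intervals) and between protein-coding genes (open squares). Inside genes the autosomes run from 2.22 per Mb on chromosome 6 to 5.02 on chromosome 10, and on the X the value inside genes is 2.33 beside 0.538 between genes.

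Transcript starts that lie inside a gene held more of these peaks than their share of bases, though most of the peaks lay elsewhere. RefSeq windows gave 3549 such internal starts, over 1000 bp from every gene end, in 2714 protein-coding genes, and internal starts on chromosome 18 were not analysed here. On the other chromosomes, 465 of 2839 of the peaks had their middle within 1000 bp of an internal start, or 16.4% (exact binomial interval 15% to 17.8%). Only 0.587% of the eligible bases lay that close to one, so the share was 27.9 times that of the bases. The share was 39% in the stronger peaks inside genes, 141 of 362. Within the weaker peaks it was 12.3% of those with at most 9 fragments, 13.9% with 10 to 19, 21.1% with 20 to 29, 21.1% with 30 to 39 and 23.7% with 40 to 56.

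The 465 peaks at an internal start, chosen for lying within 1000 bp of it, were more often downstream of it than upstream. Their middle was a median of 153 bp downstream of the start, with quartiles of -18 and 328 bp, and 337 were downstream and 128 upstream. The rule leaves out peaks within 1000 bp of a gene end, which limits the positions open around starts near one. Its effect on this split was not tested. The 465 peaks held a median of 19 fragments, against 14 in the 2374 other peaks, and their density over flanks was 13.5 times against 11.2 times. Their host genes were shorter, with a median length of 53399 bp against 123108 bp for the others.

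Which internal starts held a peak went with CpG content, a measure the rule did not use. CpG content is given as the ratio of observed CG dinucleotides to the number expected from the C and G bases of the 300-base window. Of the 3549 starts, 530 in 438 genes lay in one of the weaker peaks, 576 lay in another peak and 2443 in no peak. The CpG ratio had a median of 0.683 (quartiles 0.502 and 0.851) in starts in one of the weaker peaks, 0.792 in those in another peak and 0.268 (0.154 and 0.460) in those in no peak. At gene ends the same medians were 0.808 for starts in a peak and 0.275 for starts in no peak. The percentage of G and C had medians of 60.0% in the weaker peaks, 63.3% in other peaks and 51.3% in no peak. Starts in no peak had a median of 2 fragments within 1000 bp, against 19 for those in the weaker peaks. The starts were sorted by lying in a peak, so this difference in fragments was fixed in advance.

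The share of starts that held one of the weaker peaks went up steeply at low CpG ratios and then levelled off. It was 0.576% of starts with a ratio under 0.2, 6.54% from 0.2 to 0.4, 23.8% from 0.4 to 0.6, 29.3% from 0.6 to 0.8 and 27.0% at 0.8 or more. The share in a peak of any kind kept rising over the same classes, from 1.38% through 10.7%, 38.6% and 60.7% to 69.9%. A peak of any kind includes peaks at gene ends that reach an internal start. Starts in another peak lay a median of 1752.5 bp from a gene end. The same median was 7166.5 bp for starts in the weaker peaks and 5944 bp for starts in no peak. Even in the highest CpG class 30.1% of starts lay in no peak.

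**Figure D3:**
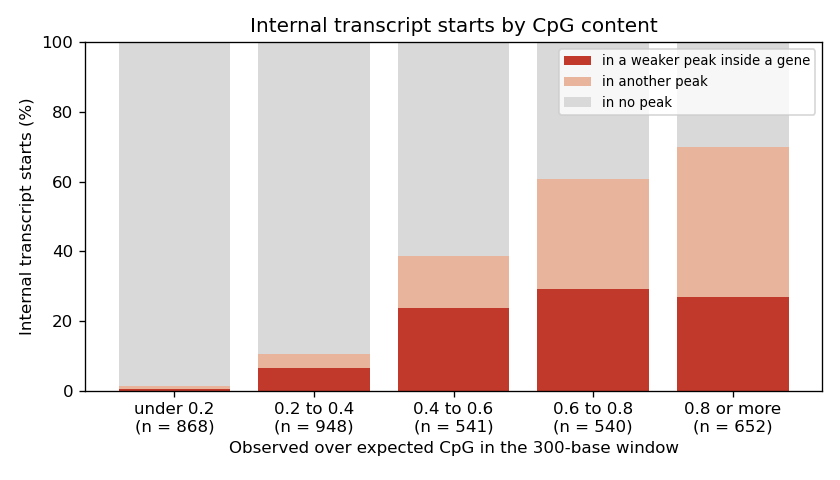
Share of internal transcript starts in percent (vertical axis, stacked to 100%) that lay in a weaker peak inside a gene, in another peak or in no peak, by observed over expected CpG in the 300-base window (horizontal axis, with the number of starts). Starts in a weaker peak make up 0.576% of the class under 0.2 and 27.0% of the class at 0.8 or more.

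The difference in CpG content was also present between starts of the same gene. In 83 genes, 1 internal start or more lay in one of the weaker peaks and 1 or more in no peak. The start in the peak had the higher CpG ratio in 76 of the 83, with medians of 0.609 and 0.261 and a median difference of 0.300. The starts with the highest ratios in these peaks were those of Pom121 at 1.33, Ptp4a2 at 1.22, Jade1, a subunit gene of a histone acetyltransferase, at 1.21, Ldb1, a transcription cofactor gene, at 1.19, and Mxi1, a gene for a MYC antagonist, at 1.19. Their peaks held 37, 41, 8, 7 and 33 fragments in that order.

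An internal start was not always a secondary one. Of the 530 starts in the weaker peaks, 253 were the first start that the RefSeq windows give for the gene, and 313 were in genes for which those windows give internal starts only, or 59.1% against 47.8% of the starts in no peak. In such genes the annotated outer end comes from a transcript outside those windows. Of first starts, 253 of 1481 lay in one of the weaker peaks, or 17.1% (interval 15.2% to 19.1%). Of later starts, 277 of 2068 did, or 13.4% (12% to 14.9%). First starts also had the higher CpG ratio, with a median of 0.476 against 0.343.

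Several promoter motifs were searched on both strands of the same windows, as letters only. GGGCGG, the GC box, was in 60.6% of the windows of starts in the weaker peaks, 25.3% of those in no peak and 46.2% of all 21263 windows of coding genes. CCGGAAGT, the core that ETS factors bind, was in 7.36%, 1.02% and 5.15% in the same order. AACGG, a MYB-type core, was in 25.5%, 13.4% and 19.1%, and CACGTG, an E-box, in 9.43%, 4.26% and 7.84%. These 4 motifs contain CG, so their frequency moves with CpG content. Among starts with a CpG ratio of 0.4 to 0.8, 287 in the weaker peaks and 544 in no peak, the shares were 56.1% and 44.3% for GGGCGG, 6.27% and 2.21% for CCGGAAGT, 27.2% and 18.6% for AACGG, and 11.1% and 8.09% for CACGTG. CpG content was not equal within this band. Of the starts in the weaker peaks, 129 were at 0.4 to 0.6 and 158 at 0.6 to 0.8, against 332 and 212 of those in no peak.

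Motifs without CG showed another order or none. TATAAA, the TATA box, was in 5.85% of windows in the weaker peaks, 13.8% of those in no peak and 12.6% of all windows, and in 5.92% and 9.56% of the first and second kind at a CpG ratio of 0.4 to 0.8. TGANTCA, the AP-1 site, was in 5.09%, 9.25% and 6.99%. CCAAT, the NF-Y core, was in 34.7%, 35.1% and 38.2%, and CNCCTCAG in 7.74%, 7.94% and 8.52%. The other motifs searched, which contain CG, were TGACGTCA, the cAMP response element, in 1.51%, 1.15% and 2.23%, and GCATGCGC, an NRF1-type site, in 2.45%, 1.19% and 3.52%. At a CpG ratio of 0.4 to 0.8 the shares in the weaker peaks and in no peak were 1.05% and 2.02% for TGACGTCA and 2.79% and 3.13% for GCATGCGC. Few windows held either motif. Over all CpG ratios, TGACGTCA was in 8 windows in the weaker peaks and 28 in no peak, and GCATGCGC in 13 and 29. No order is read from these shares. Matches of different motifs were counted separately, also where they overlapped, and a match is not a bound site.

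Most of these peaks were not at a known internal start, and they were denser near the start of the gene. For hosts whose strand is given, the density was 6.96 peaks per eligible Mb (interval 6.17 to 7.84) at 1 to 5 kb downstream of the gene start, 4.02 (3.69 to 4.37) at 5 to 20 kb, 2.89 (2.69 to 3.10) at 20 to 100 kb and 2.46 beyond 100 kb. Without the peaks at an internal start the same densities were 3.38 (2.83 to 4.0), 2.89, 2.46 and 2.28 per Mb. With each gene split into 5 equal pieces from start to end, the density was 3.83, 3.01, 2.58, 2.79 and 3.78 per Mb, so both outer pieces were denser than the middle. The median distance of a peak from the start of its host was 37.6 kb (37628 bp).

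**Figure D4:**
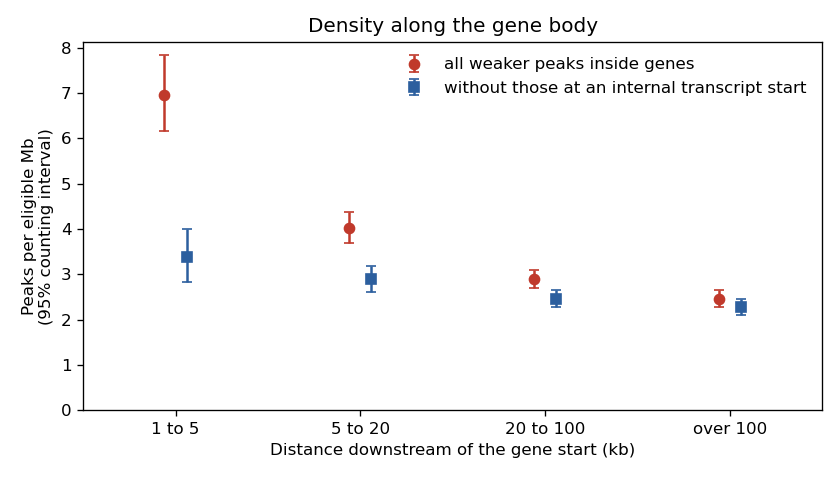
Peaks per Mb of eligible bases (vertical axis) by distance downstream of the gene start in kb (horizontal axis), for all weaker peaks inside genes (circles) and without those within 1000 bp of an internal transcript start (squares); bars are 95% exact Poisson counting intervals. The density is 6.96 per Mb at 1 to 5 kb and 2.46 beyond 100 kb, and 3.38 and 2.28 without the peaks at internal starts.

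The peaks were spread over 2139 host genes, 9.77% of the 21900 protein-coding genes, and long genes held many of them. Host genes had a median length of 78.4 kb, against 17.1 kb for all coding genes, and 1627 of them held 1 of the peaks, 342 held 2, 90 held 3, 31 held 4 and 49 held 5 or more. Of genes under 20 kb, 2.49% were hosts, and of genes over 500 kb, 65.2%. Per eligible Mb the order was the opposite: 6.08 in genes under 20 kb, 4.34 at 20 to 50 kb, 3.31 at 50 to 100 kb, 3.38 at 100 to 200 kb, 2.60 at 200 to 500 kb and 2.16 over 500 kb. In 28 cases a peak lay in more than 1 overlapping coding gene, and it was then counted for each.

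The hosts with the most peaks were very long genes, several of them best known from nerve cells. Robo1, an axon guidance receptor gene at chr16:72027518-73047491, held 17 in 1020 kb (1019974 bp), with 6 to 56 fragments and a median of 13. Tenm3, a teneurin adhesion gene, held 12, Pde4d, a gene for a cAMP phosphodiesterase, held 10, and Ctnna3, an alpha catenin gene, Robo2, a paralog of Robo1, Hs6st3, a heparan sulfate sulfotransferase gene, and Mecom, a gene for a zinc finger factor with a PR domain, held 9 each. Pcdh15, a protocadherin gene, and Dlgap1, a synaptic scaffold gene, held 8 each, and Tenm2, another teneurin gene, held 7, as did 5 shorter genes. In Robo1, Tenm3, Pde4d, Ctnna3, Hs6st3, Dlgap1 and Tenm2 none of the peaks (0 in each) was at an internal start, and in Robo2, Mecom and Pcdh15 1 was. Per length, Robo1 at 1.67 and Mecom at 1.61 peaks per 100 kb were the densest of these 10 genes and Pcdh15 at 0.515 the least dense.

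Other genes held more peaks for their length. Among the 170 hosts with 3 or more of the peaks, those with the most per 100 kb, chosen after their values were seen, were Nr4a2 at 17.5, Hhipl2 at 13.3, Tfap2a at 12.3, Tfap2b at 10.0, Muc3 at 9.64 and Gmnc at 8.71, each with 3 peaks. As each held 3 peaks, their order is that of gene length from the shortest. Of these genes, Nr4a2, Tfap2a and Tfap2b encode transcription factors, and whether such genes hold more peaks was not tested. The peaks held 17, 13 and 12 fragments in Nr4a2, 28, 17 and 11 in Hhipl2 and 32, 18 and 9 in Tfap2a. They held 14, 13 and 9 in Tfap2b, 41, 26 and 6 in Muc3 and 22, 19 and 10 in Gmnc.

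Some peaks lay very far from any gene end. The most remote were in Dcc, a netrin receptor gene, 447 kb from the nearest end, with 14 fragments, in Grm7, a glutamate receptor gene, 428 kb away with 9 fragments, in Lsamp, an adhesion gene, 423 kb away with 31, in Ctnna3, 402 kb away with 18, and in Rbfox1, a splicing factor gene, 372 kb away with 21. Forward fragments lay to the left of reverse ones in all 5, with differences from -339 bp in Ctnna3 to -693 bp in Lsamp. Those in Grm7, Lsamp, Ctnna3 and Rbfox1 were not at an internal start, and starts in Dcc were not analysed here.

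Host genes were compared with testis mRNA of other genotypes, since mRNA of Prdm9 (K/K) testis was not analysed here. Of the 2139 hosts, 2108 had a deposited mRNA value. A value of 1 or more was listed for 68.9% and 69.5% of hosts in the Prdm9 KO libraries, 68.8% and 68.5% in the Hop2 KO libraries and 78.7% in adult wild type. The shares for coding genes without one of the peaks were 62.1%, 62.6%, 62.1%, 62.6% and 68.9% in the same order. The medians were close together, at 5.18, 5.22, 5.11, 4.80 and 7.84 in hosts and 5.0, 5.06, 5.08, 5.02 and 6.94 in the other genes. The columns did not have the same sum, so a limit of 1 was not equally strict in each library. With columns rescaled to the same sum, hosts at 1 or more were 71.2% in Prdm9 KO, 69.9% in Hop2 KO and 72.6% in wild type. A value of 0 was listed for 0.996% of hosts and 12% of other genes in the first Prdm9 KO library. A host must be long enough to hold a peak over 1000 bp from both of its ends, but the other genes need not be. Host genes had a median length of 78.4 kb against 17.1 kb for all coding genes. Lengths were not matched, so these differences cannot be told apart from gene length.

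Hosts with an internal start in one of the peaks had higher mRNA values than hosts as a whole. Their medians over 432 genes were 14.1, 14.2, 14.0, 13.7 and 19.2 in the same libraries, and 85.9%, 85.9%, 85.4%, 85.4% and 88.4% of them were listed at 1 or more. In 2221 genes whose internal starts all lay outside these peaks, the medians were 6.57, 6.35, 6.19, 5.96 and 10.3. The cell makeup of the libraries differed: 5 spermatid markers summed to 1.12 and 4.14 in the Prdm9 KO libraries, to 0.854 and 27.2 in the Hop2 KO libraries and to 106326 in the wild-type library, with Prm2 listed at 0 in the first Hop2 KO library. The 5 germ line markers summed to 321 to 354 in all 5 libraries but did not move together: Ddx4 was at 24.9 to 29.4 in the knockouts and 225 in wild type, whereas Dazl was at 105 to 160 and 49.8, Sycp3 at 60.1 to 88.1 and 50.9, Dmc1 at 31.8 to 34.8 and 9.07, and Stra8 at 55.1 to 67.7 and 13.8. The 4 Sertoli markers summed to 996 to 1419 in the knockouts and 229 in wild type, and 3 Leydig markers to 2743 to 3621 and 607. Germ cells at the stage of breaks are some of the cells in each, so a host's value is not its level in those cells, and fewer cells of a type cannot be told apart from less RNA per cell.

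The density of the peaks over gene bodies was lowest in genes with the least mRNA. By the mean Prdm9 KO value of the gene, there were 2.50 peaks per eligible Mb (interval 2.25 to 2.78) in genes under 0.1, 3.72 (3.42 to 4.03) from 0.1 to 1, 3.70 (3.41 to 4.02) from 1 to 5, 3.19 (2.96 to 3.43) from 5 to 20 and 3.03 (2.81 to 3.26) at 20 or more. Classes drawn from wild-type values gave 2.38 (1.95 to 2.87), 3.29, 3.35, 3.37 (3.13 to 3.63) and 3.12 (2.93 to 3.33) per Mb, nearly flat above 0.1. Per Mb of gene body, the peaks at an internal start and the others ran in different directions over these classes. Peaks at an internal start were at 0.271, 0.192, 0.477, 0.575 and 0.819 per Mb. These densities do not take into account how many internal starts a class held, and shares per start are given further below. Peaks elsewhere, with all those on chromosome 18 among them, were at 2.23, 3.53 (3.24 to 3.83), 3.23, 2.62 and 2.21 (2.02 to 2.41) per Mb. The order changed with gene length. In genes of 50 to 200 kb all of the peaks were at 3.50, 4.50, 4.07, 2.81 and 2.97 per Mb, again by Prdm9 KO value. There the class under 0.1 was above the classes from 5 to 20 and at 20 or more. In genes of 200 kb or more all of the peaks were at 1.81, 2.41, 2.68, 2.86 and 2.08 per Mb. The peaks elsewhere were at 3.15, 4.25, 3.50, 2.28 and 2.33 per Mb in genes of 50 to 200 kb. In genes of 200 kb or more they were at 1.63, 2.37, 2.44, 2.60 and 1.83 per Mb. Over all gene lengths, the peaks elsewhere were at 2.20, 3.55, 3.26, 2.61 and 2.20 per Mb in classes drawn from Hop2 KO values. In classes from wild type they were at 2.14, 3.03, 2.99, 2.82 and 2.37.

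**Figure D5:**
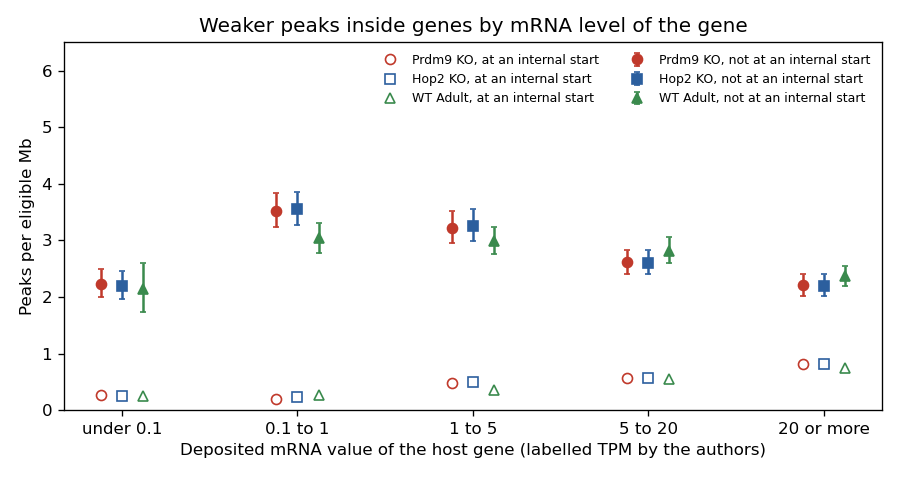
Weaker peaks inside genes per Mb of eligible bases (vertical axis) by the deposited mRNA value of the host gene (horizontal axis, classes), with levels from Prdm9 KO, Hop2 KO (means of 2 libraries each) and adult wild type (1 library); filled symbols are peaks away from internal transcript starts with 95% exact Poisson counting intervals, open symbols are peaks at internal starts. With Prdm9 KO levels, filled symbols are highest at 3.53 for values of 0.1 to 1, and open symbols run from 0.192 for values of 0.1 to 1 up to 0.819 for values of 20 or more.

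Among internal starts rich in CpG, the share in a peak went with the mRNA level of the gene only in part. For starts with a CpG ratio of 0.6 or more, the share in one of the weaker peaks was 36.2% (17 of 47, interval 22.7% to 51.5%) in genes under 0.1, 10.5% (8 of 76, 4.66% to 19.7%) from 0.1 to 1, 31.5% (52 of 165) from 1 to 5, 31.0% (99 of 319) from 5 to 20 and 27.2% (155 of 569) at 20 or more. The share in a peak of any kind, peaks at gene ends that reach the start among them, was 51.1%, 26.3%, 57.6%, 67.4% and 74.0% in the same order. Both shares were lowest in the class from 0.1 to 1, and the intervals of the classes with few starts are wide. For starts with a ratio under 0.4 the share in one of the weaker peaks was between 2.64% and 5.59% in every class of level. Over starts of any CpG ratio it was 10.8%, 6.56%, 14.4%, 18.5% and 18.1% from the lowest class of level to the highest. These classes held 361, 518, 585, 805 and 1197 starts.

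Genes of 5 lists, on meiosis, spermatogenesis, chromatin and somatic testis cells, were hosts about as often as coding genes at large: 18 of 171, or 10.5%, against 9.77%. They held 36 of the peaks, 20 of them in the 3 lists of meiosis and spermatogenesis. Of 48 early meiotic genes, 2 were hosts, Rec114, which acts in break formation, and Stag3, a meiotic cohesin gene, and they held 3 of the peaks, or 1.24 per Mb (interval 0.256 to 3.63). Of 37 spermatid and late spermatocyte genes, 5 were hosts with 10 peaks, or 4.07 per Mb (1.95 to 7.48): Spag6, Spag16, Cfap43 and Cfap44, which encode proteins of the sperm tail, and Spata16. Of 26 spermatogonial genes, Gfra1, Dmrtb1 and Dnmt3a were hosts with 7 peaks, or 5.89 per Mb (2.37 to 12.1). Of 39 genes of histone methylation and chromatin, Kmt2d, Cxxc1, Cdyl and Dnmt1 were hosts with 6 peaks, or 2.88 per Mb (1.06 to 6.28). Of 22 genes of somatic testis cells, Wt1, Gata4, Lhcgr and Pdgfra were hosts with 10 peaks, or 10.4 per Mb (4.97 to 19.1). Of those 10 peaks, 4 were in Gata4 and 3 in Pdgfra, and without Gata4 the density was 6.70 per Mb (2.46 to 14.6). The density over all gene bodies was 3.22 per Mb, below the interval of the somatic list with Gata4 and within it without, and genes of 20 to 50 kb stood at 4.34. The other lists were likewise left without their leading host after the data were seen, and each density was then lower. Without Rec114 the early meiotic genes had 0.442 per Mb with 1 peak left, and without Dnmt3a the spermatogonial genes 1.83 with 2. Without Cdyl the chromatin genes had 1.60 with 3, and without Cfap44 the spermatid genes 2.95 with 7. Of these values, only the spermatogonial one lay outside the interval of its full list.

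The listed genes with the strongest of these peaks were expressed at very different levels. Cdyl, with 56 fragments in the peak at chr13:35739426-35742949, had mRNA values of 28.0 and 27.0 for Prdm9 KO, 29.5 and 26.6 for Hop2 KO and 286 for wild type. Dnmt3a held peaks with 53 fragments at chr12:3890520-3893067, 46 at chr12:3806171-3809122 and 37 at chr12:3870015-3872400, the first and second of them at internal starts, and its values were 38.1 and 34.2, 31.0 and 24.5, and 17.6. Cfap44 held peaks with 49 and 40 fragments and had values of 0.255 and 0.318, 0.191 and 0.209, and 43.6. Cfap43, with 35 fragments, had values of 1.57 and 1.49, 1.70 and 1.83, and 219. The 2 tail genes were thus near 0 or low in all 4 knockout libraries and high in wild type, whereas Dnmt3a was lowest in wild type.

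Further listed hosts covered the same range. Pdgfra, a growth factor receptor gene, held a peak with 36 fragments at chr5:75155225-75157147 and had values of 49.3 and 38.8, 55.8 and 29.2, and 6.07. Rec114 held a peak with 32 fragments at chr9:58766559-58768573 and had values of 12 and 7.37, 11.4 and 8.90, and 9.96. Dmrtb1, a regulator of spermatogonia, held 1 with 29 fragments at an internal start and had values of 45.7 and 40.8, 37.6 and 34.1, and 1426. Lhcgr, the receptor gene for luteinizing hormone in Leydig cells, held 1 with 28 fragments and had values of 46.8 and 43.3, 51.3 and 34.7, and 5.70. Spag6 held 1 with 25 fragments at an internal start and had values of 1.83 and 3.30, 1.67 and 2.23, and 270.3. Outside the lists, the named hosts of peaks at the upper limit of 56 fragments also differed widely. Kcnb2 had values of 0.00820 and 0.00952, 0.00514 and 0.0105, and 0.761. Cntn1 was at 0.592 and 0.278, 0.608 and 0.302, and 5.61, and Gm973 at 2.86 and 4.69, 2.44 and 4.42, and 238. Mettl25 was at 6.28 and 7.36, 6.52 and 6.66, and 8.78, and Myo1c at 43.2 and 39.7, 43.1 and 34.5, and 63.1.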

How the data were processed

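Break sites came from 1 SSDS library of Prdm9 (K/K) testis. The authors deposited a list of peaks as other values, that is positions on GRCm38 (mm10) with no score, and a line for each fragment. Per the submitters' processing notes CASAVA and MACS2 2.1.0.20150420 were used, and no aligner or peak threshold is given in the sources used here. The meaning of the fifth column of the fragment lines is not stated. The authors deposited mRNA values as a signal that they called TPM, per the file headers, and the notes name kallisto and sleuth. Those columns sum to 825459 to 1622660 and not to one common total, so they were rescaled by unknown factors and their depth is unknown.

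Fragments were counted once per chromosome, start, end and strand: 9397213 lines gave 2652951 distinct fragments, 28.2%, with lengths of 24 to 427 bases. A fragment belonged to a peak if its midpoint lay in it. Gene ends were those of 49980 RefSeq genes (GRCm38.p6). Eligible bases lay over 1000 bp plus the median peak's reach from every gene end, on autosomes and X. RefSeq start windows covered 79.9% of coding genes, and genes were matched to mRNA values by symbol. Counting intervals are exact at 95% and cover counting error only, since fragments without molecular identifiers are not independent molecules. Python 3.11.15, pandas 2.3.3, NumPy 2.4.6, SciPy 1.17.1 and matplotlib 3.10.9 were used, and the counting and distance steps were checked on simulated data. CpG content was to be measured around peak middles, and start windows took that place.

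Genes named are the hosts of 6 of the 14 peaks tied at the most fragments, of 3 peaks on either side of the limit, of the 5 with highest CpG and the 5 farthest from gene ends, of up to 12 in listed genes, the extremes of density over flanks, and up to 10 hosts with 3 or more peaks. The peaks, lists and measures were chosen with earlier results of these data known.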

Additional observations from a re-analysis of the deposited data

How the results depend on the processing

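The number of weaker peaks inside genes was 2971. It was 1590 with duplicate fragments counted against the same limit and 1083 with at least 20 distinct fragments required. Their share of weaker peaks away from gene ends was 48.6% with distance taken from the peak middle, 43.6% with a minimum distance of 5000 bp, 44.9% with duplicates and 49.2% with at least 20 fragments, against 46.2%. The strand difference was -652 bp for fragments within 1000 bp of the middle and -693 bp with at least 20 fragments. The share at an internal start was 14.0% within 500 bp. In alternatives chosen after seeing the data it was 21.8% with at least 20 fragments, 20.2% for hosts with a start window and 13.3% at 5000 bp, and the CpG ratio was 0.754 in windows from 100 bases before to 50 after the start. Hosts listed at 5 or more were 50.7% in Prdm9 KO, 50.2% in Hop2 KO and 57.5% in wild type. With columns rescaled to the same sum, hosts at 1 or more were 72.6% in wild type, 71.2% in Prdm9 KO and 69.9% in Hop2 KO. Of 38 alternatives, 20 stayed within the stated spread or 1.5 times, among them those without 1 library of a knockout, and the cause of the other changes was not tested. No paired analysis was possible because the results come from no test. The share of peaks in exons and CpG content around peak middles were not run, since no genome or exon annotation was used here. With 3 to 56 fragments a peak, 1 library and no control library, single peaks are loosely measured.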
